A study of Mus musculus with 12 samples.

Results

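DNase I hypersensitive sites of mitotic cells were compared between G1E-ER4 cells, in which GATA-1 had been restored, and G1E cells, which have no GATA-1. The comparison used 6 of the 12 libraries of the series, namely the mitotic libraries of G1E-ER4 (3 libraries) and of G1E (3 libraries). The other 6 libraries came from asynchronous cultures of the same lines, 3 per line, and were used to look up sites that had been chosen in mitosis. Both lines have the strain 129 background. G1E was derived from 129 embryonic stem cells by targeted disruption of GATA-1, and G1E-ER4 is a G1E subline that carries an inducible GATA-1. All G1E-ER4 libraries, asynchronous and mitotic, were made after 22 h in 100 nM estradiol, and no G1E library had estradiol. For the mitotic libraries, both lines had nocodazole at 200 ng/ml in the last 7 h, and cells positive for H3S10Phos, histone H3 phosphorylated at a serine in mitosis, were collected by flow sorting after light formaldehyde fixation. Each genotype is represented by 1 line, so GATA-1, estradiol and any other difference between the lines cannot be told apart. The labels give the surface markers Ter119+CD71+ for G1E-ER4, and Ter119-CD71- and Ter119-CD71+ for G1E, so the lines also differ in these labelled markers of maturation. Erythroid genes were not checked as markers, because no annotation of the build of the files, mm9, was used here. For the same reason regions are given by position only.

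GATA-1 is a zinc finger transcription factor that binds GATA motifs at enhancers and promoters and is required for the terminal maturation of red cells. DNase I cuts chromatin most readily where nucleosomes have been displaced, which is typical of active promoters and enhancers, and so a peak of cuts marks an accessible site. In mitosis chromosomes condense, transcription largely stops and many factors leave the DNA, while a share of sites stays accessible. Retention of a factor at such sites, known as mitotic bookmarking, has been described for GATA-1.

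Every deposited list held its strongest peaks down to a fixed number, so lists could differ in which sites they held and in their order, not in how many. The 90000 strongest peaks on chromosomes 1 to 19 were used from each, without chromosome 2 beyond 156 Mb, where peak density differs between the lines as a block, and rank 1 is the strongest peak. Read depth cannot be read from peak lists. The numbers in the peak names imply at least 586668, 444707 and 421103 peaks called before the limit in G1E replicates 1, 2 and 3, and at least 548977, 437412 and 466194 in G1E-ER4. The labels do not say whether replicates were separate cultures, so p-values measure the spread between these libraries, which may be technical.

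The lists of the lines overlapped in shape. Median peak width was 987, 810 and 634 bp in G1E replicates 1, 2 and 3, and 945, 645 and 474 bp in G1E-ER4. The G1E-ER4 list was the narrower of each same-numbered pair, but the lines overlapped widely, with means of 688 ± 238 bp in G1E-ER4 and 810 ± 176 bp in G1E (SD, n = 3 each; exact permutation test, two-sided, p = 0.5). The signal at rank 10000 was 2.06 ± 0.0910 times that of the last peak in G1E-ER4 and 2.23 ± 0.386 times in G1E (SD, n = 3 each; exact permutation p = 0.6). Chromosome 1 held 13.0%, 12.2% and 15.0% of the peaks in G1E-ER4 replicates 1, 2 and 3, and 12.3%, 9.92% and 11.9% in G1E. It was higher in G1E-ER4 in 3 of 3 pairs, but the exact permutation p was 0.2. None of the 23 list traits compared, 19 of them shares of a chromosome, separated the lines, and each had an adjusted p of at least 0.94 (exact permutation test, Benjamini-Hochberg). With 3 lists against 3 these tests cannot give a p under 0.1.

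One mitotic library stood apart. G1E mitotic replicate 1 had 16.6% of its peaks on chromosome 4, against 6.14% to 7.68% in the other 5 lists. Over the regions found in all 6 lists, its ranks had a Spearman correlation of 0.690 to 0.725 with the other lists. The other G1E lists correlated at 0.915 with each other, and all pairs without this library lay between 0.742 and 0.915. Where counts of calls or of regions of 1 line were taken without it, both values are given. A like excess was seen in asynchronous G1E replicate 1. It had 13.6% of its peaks on chromosome 4, against 4.85% to 7.88% in the other asynchronous lists.

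**Figure D1:**
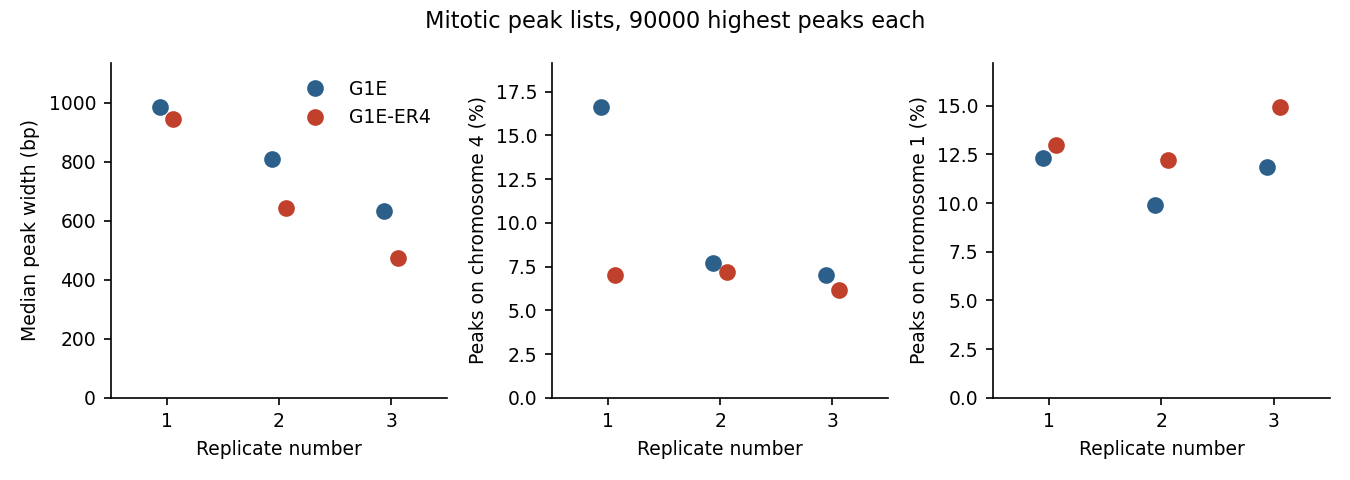
Median peak width in bp (left), share of peaks on chromosome 4 (centre) and share on chromosome 1 (right) in the 90000 strongest peaks of each mitotic list, by replicate number. G1E replicate 1 stands alone at 16.6% on chromosome 4, and G1E-ER4 is narrower and has more of chromosome 1 at each replicate number.

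The 6 mitotic lists merged into 177159 regions, of which 23388 (13.2%) were in all 6 lists and 88287 (49.8%) in a single list. Few regions separated the lines completely. All 3 G1E-ER4 lists and no G1E list held 1075 regions (0.607% of all regions), and all 3 G1E lists and no G1E-ER4 list held 1614 (0.911%). By comparison, 4649 regions were in 3 G1E-ER4 lists and 2 of G1E, and 5331 in 3 G1E lists and 2 of G1E-ER4. No test was made on presence, since 3 lists against 3 cannot give a p under 0.1.

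These regions of 1 line lay mostly in the middle of the lists by rank. The G1E-ER4 regions had a median width of 1020 bp and a median mean rank of 50021, and the G1E regions 1123.5 bp and 45923, against 712 bp for all 177159 regions and 2969 bp for regions in all 6 lists. A mean rank within the first 20000 was reached by 34 of the G1E-ER4 regions (3.16%) and by 169 of the G1E regions (10.5%). The list that the authors pooled from the replicates of the other line held 326 of the 1075 G1E-ER4 regions (30.3%) and 341 of the 1614 G1E regions (21.1%). A weaker peak beyond rank 90000 of a deposited list of the other line overlapped 147 of the G1E-ER4 regions (13.7%) and 140 of the G1E regions (8.67%). On chromosome 4 lay 10 of the G1E-ER4 regions (0.930%) and 229 of the G1E regions (14.2%), against 9.13% of all regions. G1E mitotic replicate 1 had its excess of peaks on this chromosome, and its part in these shares was not tested. Without G1E mitotic replicate 1, the counts were 1812 and 5299. On chromosome 1 lay 190 of the G1E-ER4 regions (17.7%) and 138 of the G1E regions (8.55%), against 11.96% of all regions.

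The asynchronous libraries, which played no role in choosing these regions, were then searched for them. Regions found in mitosis in G1E-ER4 alone were held more often by asynchronous G1E-ER4 lists, namely 49.9%, 43.2% and 34.8% of the 1075 in replicates 1, 2 and 3, than by asynchronous G1E lists, which held 20.8%, 15.3% and 20%. The groups did not overlap. The means were 42.6% ± 7.55 and 18.7% ± 3.01 (SD, n = 3 each), a difference of 23.9 percentage points (exact permutation test, two-sided, p = 0.1, the smallest that 20 arrangements allow). Without G1E-ER4 mitotic replicate 2 among the lists that chose the regions it was 13.3 points, and over all libraries left out in turn it ran from 13.3 to 30.4. The asynchronous G1E-ER4 lists also held more of the regions on which the mitotic lines did not differ in this way. Of the 13139 regions found in 2 mitotic lists of one line and 1 of the other, they held 45.3% ± 12.3, and the asynchronous G1E lists 30.5% ± 4.81 (SD, n = 3 each; exact permutation p = 0.1), a difference of 14.8 points.

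Regions found in mitosis in G1E alone were common in asynchronous cells of both lines. Asynchronous G1E lists held 70.0%, 61.4% and 64.7% of the 1614 in replicates 1, 2 and 3, and asynchronous G1E-ER4 lists 69.8%, 47.4% and 50.6%. The groups overlapped. G1E had a mean of 65.4% ± 4.35 and G1E-ER4 of 55.9% ± 12.1 (SD, n = 3 each), which did not differ beyond the spread between lists (exact permutation p = 0.3), and without G1E-ER4 mitotic replicate 1 among the lists that chose the regions the difference turned to 3.56 points in favour of G1E-ER4, and it was -0.69 and -0.47 points without G1E-ER4 mitotic replicate 2 or G1E mitotic replicate 3. In the 50000 strongest peaks it was -17.3 points, with 300 bp around each summit -8.74 points and without asynchronous G1E-ER4 replicate 1 -16.4 points, each with an exact permutation p of 0.1. G1E held more in each same-numbered pair. Asynchronous G1E replicate 1 had an excess of peaks on chromosome 4, as its mitotic counterpart did, and without it the difference was -7.11 points. The excess of the G1E-ER4 lists by 14.8 points at the 13139 regions of both lines was not seen here. Set against each other within each asynchronous list, the share of the G1E-ER4 regions minus that of the G1E regions was -13.3 ± 8.15 points in G1E-ER4 and -46.7 ± 2.29 points in G1E (SD, n = 3 each), 33.3 points apart (exact permutation p = 0.1, the smallest possible). Of the 1614 regions, 439 were in all 6 asynchronous lists, 97 were in all 3 of G1E and none of G1E-ER4, and 105 (6.51%) were in no asynchronous list. Of the 1075 G1E-ER4 regions, 38 were in all 6 asynchronous lists, 67 were in all 3 of G1E-ER4 and none of G1E, and 246 (22.9%) were in no asynchronous list. The full opposite pattern, with all 3 asynchronous lists of the other line and none of its own, was found for 2 G1E-ER4 regions and 13 G1E regions. No such counts over all mitotic regions are given here. The counts are thus a description and do not show a trait particular to these sets.

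The strongest regions of 1 line are described next, of which most were also seen in asynchronous cells of that line. Among the G1E-ER4 regions with the best mean rank, chr16:94372012-94372716 (705 bp) had ranks 8455, 8645 and 9689 in the mitotic G1E-ER4 replicates 1, 2 and 3, with summits within 9 bp of each other. Its asynchronous ranks were 7818, 4283 and 3295 in G1E-ER4, and in G1E it was in 1 list alone, at 38455. The region chr9:66468217-66469092 (876 bp) ranked 11385, 7630 and 4217 in mitotic G1E-ER4. It was in all 6 asynchronous lists, at 8265, 5526 and 6023 in G1E-ER4 and at 32384, 88444 and 37283 in G1E. Both sites were thus placed much higher in G1E-ER4 in asynchronous cells, while their mitotic difference is the rule that chose them. The list that the authors pooled from the mitotic G1E replicates did hold the chromosome 9 region. The best-ranked of all, chr12:72484593-72486528 (1936 bp), behaved otherwise. It ranked 4964, 8145 and 8009 in mitotic G1E-ER4, while in asynchronous G1E-ER4 it was absent from replicate 1 and at 85787 and 51080 in replicates 2 and 3. In asynchronous G1E it was at 72961 in replicate 1 and absent from replicates 2 and 3.

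Among the G1E regions, chr15:80453341-80454371 (1031 bp) had the best mean rank, with 6135, 5436 and 5521 in mitotic G1E replicates 1, 2 and 3. It ranked 5823, 3955 and 6774 in asynchronous G1E, and in asynchronous G1E-ER4 it was at 35084 and 36417 in replicates 1 and 2 and absent from replicate 3. The region chr7:39012472-39013589 (1118 bp) ranked 9011, 3941 and 6019 in mitotic G1E and 8236, 23907 and 7815 in asynchronous G1E, and asynchronous G1E-ER4 held it in 1 list, at 71114. The site chr8:60054141-60056232 (2092 bp) showed that a region missing from mitotic G1E-ER4 could be strong in asynchronous cells of that line. Its ranks were 6930, 6795 and 7776 in mitotic G1E and 1074, 1057 and 1032 in asynchronous G1E, and in asynchronous G1E-ER4 it still had 18201, 11841 and 10238. All 3 asynchronous lists of G1E held each of the 6 best-ranked G1E regions.

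Regions present in all 6 mitotic lists were compared by rank. The score was the log2 of the best rank in a region, so that a difference of 1 is a factor of 2 in rank, and positive differences mean a better rank in G1E-ER4. Most differences were small. The median absolute difference was 0.43 with a median SE of 0.51, and 85.5% of the 23388 regions lay within 1 unit of equality. The ranks of all 3 G1E-ER4 lists were better than those of all 3 G1E lists at 2061 regions (8.81%), and the reverse held at 1763 (7.54%). With a difference of at least 2 units as well, 70 and 161 regions remained. Without that limit, each order is 1 of the 20 arrangements of the 6 lists, so these shares alone do not mark a line difference.

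In the fit without regard to replicate numbers, 1 region passed (limma, Benjamini-Hochberg, adjusted p under 0.05), or 0.00428% of those tested, ranked lower in G1E-ER4, and 2319 (9.92%) had an unadjusted p under 0.05. Libraries of the same number tended to deviate from their line's mean in the same direction, with correlations over the 23388 regions of 0.36, 0.21 and 0.14 for numbers 1, 2 and 3. No label states this pairing, and G1E-ER4 replicate 2 reached 0.243 with G1E replicate 3. With the replicate number as a block, 227 regions passed (0.971%), 79 ranked higher in G1E-ER4 (0.338%) and 148 ranked lower (0.633%). All 227 had the same direction in 3 of 3 pairs and an unadjusted p under 0.05 without the block. Over all 23388 regions, 8560 (36.6%) had the same direction in 3 pairs. The same ranks called the 227, so their agreement is a description and adds no support to the calls. The count without the block was 119 without G1E mitotic replicate 1 (10 higher and 109 lower), 5 and 2 without G1E-ER4 replicate 1 or 2, and 0 without G1E-ER4 replicate 3 or G1E replicate 2 or 3. With the block it was 398, 463 and 275 without both replicates 1, 2 or 3.

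The regions called with the block are described here by the values that called them. The 79 that ranked higher in G1E-ER4 were broad and among the strongest of all, with a median width of 4256 bp, a median mean rank of 1146 in G1E-ER4 and of 4131 in G1E, and a median difference of 1.98. The 148 that ranked lower had a median width of 2918.5 bp, a median mean rank of 19508 in G1E-ER4 and of 4006 in G1E, and a median difference of -2.28. Over all 23388 regions the median width was 2969 bp, the median mean ranks were 16621 and 17272, and the median difference was 0.01. On chromosome 4 lay 5 of the 79 (6.33%) and 18 of the 148 (12.2%), against 8.02% of all regions, and with chromosome 4 left out and the lists limited to their 75000 strongest peaks the call count was 234 of 20228.

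The region that passed in both fits was chr5:137772865-137775453 (2589 bp). Its ranks were 39128, 38585 and 78937 in G1E-ER4 replicates 1, 2 and 3, and 2893, 2269 and 2417 in G1E. All G1E-ER4 ranks were worse by more than a factor of 10. The difference was -4.29 ± 0.454 (SE; limma adjusted p = 0.0137, and 0.00177 with the block). In asynchronous cells the order was the same, at 23039, 68205 and 34543 in G1E-ER4 and 752, 5960 and 3691 in G1E.

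Other regions that ranked lower in G1E-ER4 passed with the block alone. At chr4:154549804-154554046 (4243 bp) the ranks were 80291, 85978 and 82750 in G1E-ER4, close to the end of the lists, and 7586, 9241 and 9305 in G1E. The difference was -3.26 ± 0.495 (SE with the block; limma adjusted p = 0.0115 with the block and 0.0596 without). The peak itself was also narrower in G1E-ER4, at 840, 322 and 266 bp against 4243, 2592 and 1697 bp in G1E. At chr7:134151724-134152844 (1121 bp) the ranks were 74603, 23712 and 38675 in G1E-ER4 and 5913, 2753 and 2200 in G1E (difference -3.63 ± 0.429, SE with the block; limma adjusted p = 0.00628 with the block and 0.0920 without). A strong site in both lines, chr14:120875991-120878909 (2919 bp), ranked 2856, 3406 and 2748 in G1E-ER4 and 477, 486 and 392 in G1E. Its ranks lay close together within each line, with a difference of -2.73 ± 0.338 (SE with the block; limma adjusted p = 0.00638 with the block and 0.0979 without). The other 4 of the 8 regions with the smallest p in this direction, on chromosomes 16, 2, 4 and 15, had differences of -3.81 to -2.96. Their ranks ran from 21609 to 80820 in G1E-ER4 and from 2973 to 7191 in G1E.

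No region that ranked higher in G1E-ER4 passed without the block, and the 8 with the smallest p all passed with it. The largest difference was at chr11:120165592-120170399 (4808 bp), with ranks 380, 37 and 63 in G1E-ER4 and 1321, 1386 and 2230 in G1E. This made it 1 of the strongest sites of mitotic G1E-ER4 cells, with a difference of 4.06 ± 0.588 (SE with the block; limma adjusted p = 0.00983 with the block and 0.134 without). At chr13:75843717-75848119 (4403 bp) the ranks were 223, 336 and 140 in G1E-ER4 and 2316, 1122 and 2336 in G1E (difference 3.06 ± 0.449, SE with the block; limma adjusted p = 0.00983 with the block and 0.116 without). At chr1:58270453-58273492 (3040 bp) they were 5632, 1999 and 1613 against 13082, 23127 and 24917 (difference 2.90 ± 0.483, SE with the block; limma adjusted p = 0.0169 with the block and 0.116 without). The last site stood out in asynchronous G1E-ER4, at ranks 5285, 157 and 28, while asynchronous G1E had 7057, 17528 and 13808. At chr13:23550061-23551941 (1881 bp), a weaker site, mitotic ranks were 7996, 5603 and 3843 in G1E-ER4 and 29295, 35644 and 50078 in G1E (difference 2.75 ± 0.483, SE with the block; limma adjusted p = 0.0213 with the block and 0.116 without). The other 4, on chromosomes 11, 17, 4 and 8, had differences of 2.33 to 2.55, with ranks from 537 to 13976 in G1E-ER4 and from 2601 to 75793 in G1E. In all 16 named regions the mitotic ranks of the lines did not overlap, and these values are a description, since the same ranks chose the regions.

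**Figure D2:**
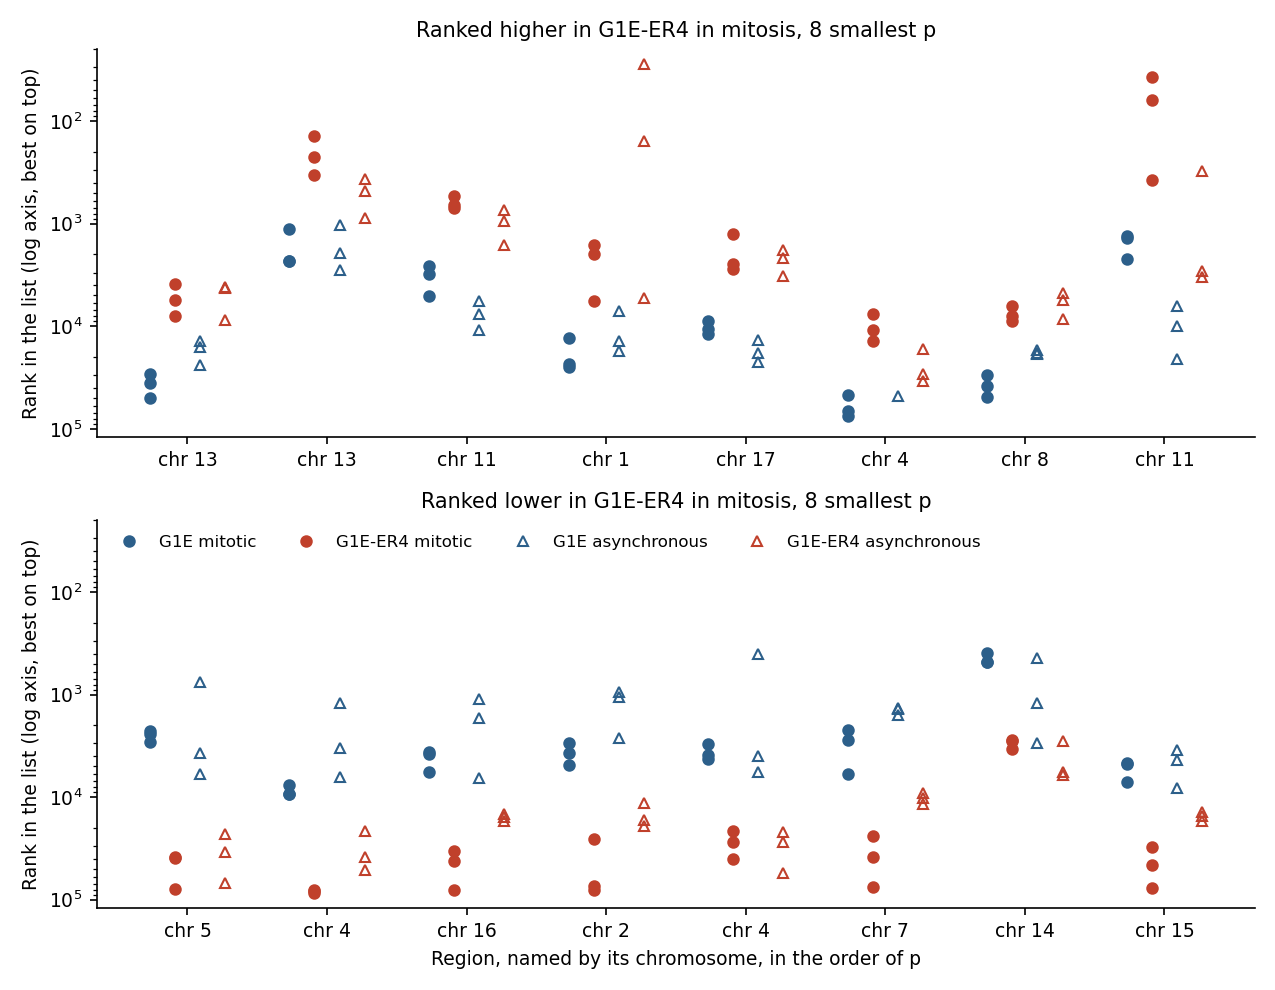
Rank in each list (log axis, best on top) of the 8 regions with the smallest p in each direction, named by chromosome and ordered by p, for mitotic (filled circles) and asynchronous (open triangles) libraries of G1E (blue) and G1E-ER4 (red); each point is 1 library, and lists without a region have no point. The mitotic ranks of the lines do not overlap in any of the 16 regions, and the chromosome 5 region at the lower left has G1E ranks of 2269 to 2893 against 38585 to 78937 in G1E-ER4.

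The same sites differed between the lines in asynchronous cells. Of the 79 regions called higher in mitosis, 77 (97.5%) had a better mean score in asynchronous G1E-ER4, with a median difference of 2.07, and of the 148 called lower, 142 (95.9%) had a worse one, with a median of -1.83. Over all 23388 regions, 73.9% lay above 0 and 25.8% below 0 in asynchronous cells, with a median of 0.53, so asynchronous differences leaned towards G1E-ER4 in general. The contrast between the sets was therefore taken within each list. Median ranks of the 79 were 1259, 1809 and 2243 in asynchronous G1E-ER4 replicates 1, 2 and 3, and 4357, 10691 and 7665 in G1E. Median ranks of the 148 were 10697, 8965 and 9672 in G1E-ER4, and 2419, 3125 and 2776 in G1E. The groups overlapped in neither set. The difference between the sets was 3.86 units larger in G1E-ER4 than in G1E (exact permutation test over 3 against 3 lists, two-sided, p = 0.1, the smallest possible). With the block in the asynchronous fit as well, 53 of the 79 (67.1%) were called higher there and 89 of the 148 (60.1%) lower, among 2750 higher calls (10.7% of the 25784 tested) and 2312 lower calls (8.97%), 19.6% called in all. None of the 79 and 2 of the 148 were called in the opposite direction.

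Conversely, sites that told the lines apart in asynchronous cells were followed into mitosis. The asynchronous fit without a block called 2264 of 25784 regions (8.78%), 1088 ranked higher in G1E-ER4 (4.22%) and 1176 lower (4.56%). A region absent from a list was given rank 90001 here. In mitosis, 1109 of the 1176 lower regions (94.3%) had a worse score in G1E-ER4, with a median difference of -1.47 against -2.04 in the lists that chose them. Median ranks of these sites were 90001, 81298 and 87630 in mitotic G1E-ER4 replicates 1, 2 and 3, the first meaning absence, and 28505, 13368 and 11799 in mitotic G1E. All 3 mitotic G1E-ER4 lists lay far below all 3 G1E lists. The mitotic G1E-ER4 lists held 45.5%, 52.7% and 50.7% of them, and the mitotic G1E lists 73.1%, 91.3% and 93.3%.

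The 1088 regions that ranked higher in asynchronous G1E-ER4 were mostly present in mitosis in both lines. In mitosis 887 of them (81.5%) had a better score in G1E-ER4, with a median difference of 0.51 against 1.56 in the lists that chose them. Their median ranks were 9814, 9657 and 11962 in mitotic G1E-ER4 and 20445, 13653 and 14619 in mitotic G1E. The lines did not overlap, but both held these sites: the G1E lists contained 82.6%, 94.8% and 94.1% of them in replicates 1, 2 and 3, and the G1E-ER4 lists 94.4%, 96.7% and 92.1%. A difference of at least 1 unit in the called direction was kept by 269 (24.7%) of the higher regions and by 811 (69.0%) of the lower ones. Over all 25784 regions the corresponding shares were 4.88% and 15.4%, 37.3% had a better and 59.2% a worse score in mitotic G1E-ER4, and the median was -0.16. The difference between the sets was 3.00 units larger in mitotic G1E-ER4 than in mitotic G1E (exact permutation test, two-sided, p = 0.1, the smallest possible). The difference between the directions was not tested.

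**Figure D3:**
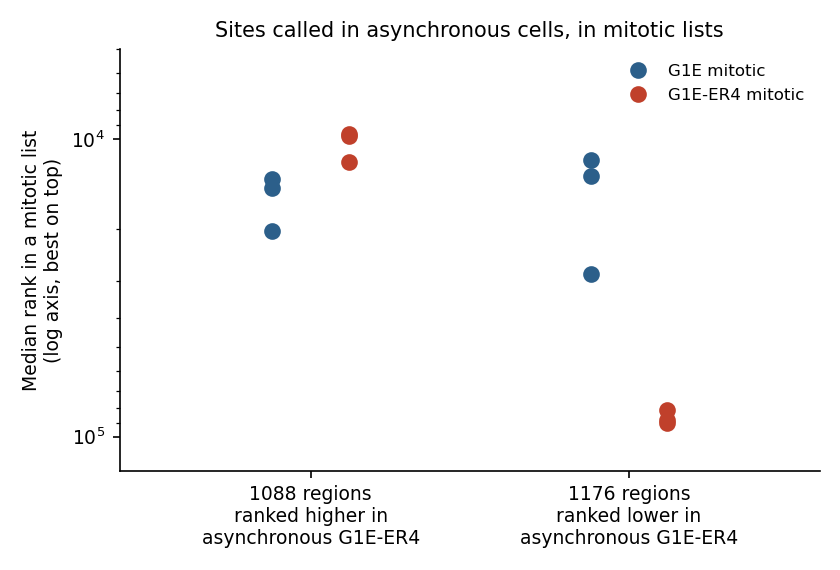
Median rank in each mitotic list (log axis, best on top) of the 1088 regions that ranked higher and the 1176 that ranked lower in asynchronous G1E-ER4; each point is 1 mitotic library, with absent regions set to rank 90001. For the lower set the G1E-ER4 lists sit at 81298 to 90001 and the G1E lists at 11799 to 28505, while for the higher set the lines lie closer, at 9657 to 11962 and 13653 to 20445.

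Presence in asynchronous cells was followed into mitosis as well. In asynchronous cells, 4571 of 189405 regions (2.41%) were in all 3 G1E-ER4 lists and no G1E list. Mitotic G1E-ER4 lists held 77.1%, 72.0% and 57.9% of them in replicates 1, 2 and 3, and mitotic G1E lists held nearly as many, at 57.0%, 70.7% and 62.3%. The lines overlapped, with means of 69.0% ± 9.94 and 63.3% ± 6.88 (SD, n = 3 each; exact permutation p = 0.4). The difference was 5.68 points. These regions had a median width of 2308 bp. The 5305 regions (2.8%) found in all 3 asynchronous G1E lists and no G1E-ER4 list were narrower, with a median of 743 bp, and few were found in mitosis. Mitotic G1E lists held 12.9%, 16.4% and 20.8% of them, and mitotic G1E-ER4 lists 6.26%, 4.13% and 6.07%. The lines did not overlap here, with means of 5.49% ± 1.18 for G1E-ER4 against 16.7% ± 3.99 for G1E (SD, n = 3 each; exact permutation p = 0.1, the smallest possible). These shares were far below those of the 1176 regions called lower by rank, which had a median width of 1927.5 bp. No share over all asynchronous regions is given here, and the part of peak width in these shares was not tested.

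Regions present in all 12 lists allowed the line difference to be set side by side in both stages. Of these 15276 regions, the fit called 1204 (7.88%) between the asynchronous lines and 110 (0.72%) between the mitotic lines, 12 higher and 98 lower in G1E-ER4. With the replicate block the counts were 2829 (18.5%) and 333 (2.18%). This fit took a common residual variance for each region from all 12 lists, asynchronous and mitotic. Its mitotic counts are therefore not on the same basis as those of the fit on the mitotic lists alone. That fit called 1 of 23388 regions, and 227 with the block. Without the block its median SE was 0.51, against 0.39 in the fit on the asynchronous lists alone. The mitotic difference was the smaller of the pair at 64.0% of regions and had the same sign at 63.2%. The median absolute difference was 0.43 in mitosis and 0.66 in asynchronous cells. Across regions the mitotic difference correlated with the asynchronous one at r = 0.52 with a slope of 0.35, as a description, since regions share the libraries they were measured in. Scatter in the asynchronous values also lowers such a slope, so it does not give the relative size of the differences. The difference between stages was tested by its own term. Without the block no region passed (limma, 1485 with an unadjusted p under 0.05). With the block 1 region passed (0.00655%), chr12:83345283-83351144 (5862 bp). Its ranks in asynchronous cells were 33668, 10637 and 11434 in G1E-ER4 and 970, 283 and 186 in G1E, and in mitotic cells 24161, 18216 and 13938 in G1E-ER4 and 8348, 10540 and 6782 in G1E. The line difference was thus -5.43 in asynchronous and -1.12 in mitotic cells, 4.31 units apart (limma adjusted p = 0.0224 with the block and 0.475 without). All 3 mitotic G1E ranks were worse than all 3 asynchronous G1E ranks, while the ranks in G1E-ER4 overlapped between the stages.

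**Figure D4:**
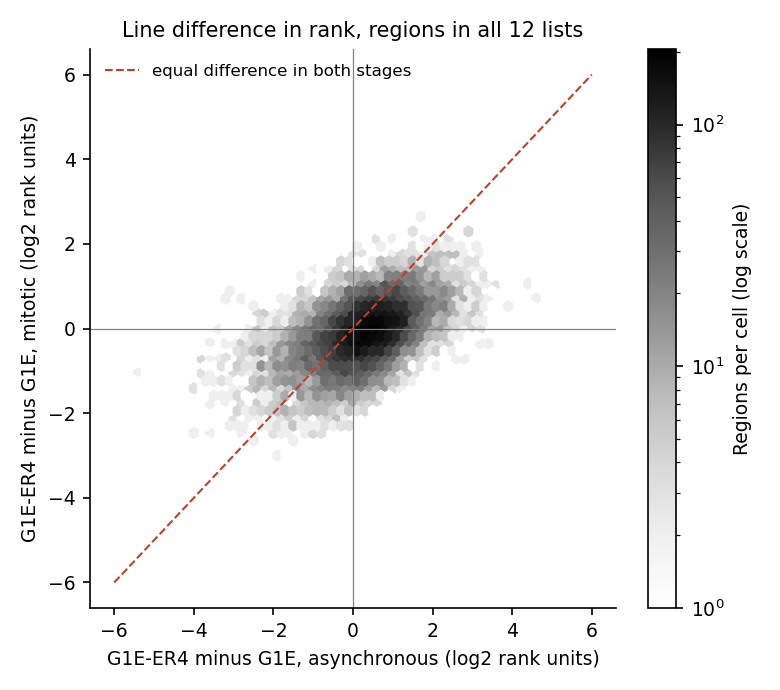
Difference in log2 rank score, G1E-ER4 minus G1E, in asynchronous (x axis) and mitotic (y axis) cells for the 15276 regions in all 12 lists, with grey shading for the number of regions per cell on a log scale and a dashed line for equal differences. The cloud is flatter than the dashed line, with the smaller difference in mitosis at 64.0% of regions. Its slope of 0.35 is also lowered by scatter in the asynchronous values.

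Agreement between lists gave the scale of the line difference in mitosis. Sites reproduced in 2 lists of a line were found in lists of the other line nearly as often as in its own remaining list. For G1E-ER4, 79.8% ± 7.41 were found in the left-out list of the line and 79.1% ± 2.42 in the lists of G1E (SD, n = 3 each). For G1E, 80.1% ± 6.42 were found in the left-out G1E list and 76.2% ± 1.95 in the lists of G1E-ER4 (SD, n = 3 each). Averaged over both lines, lists of the own line held 2.35 percentage points more (exact two-sided permutation over lists, p = 0.1, the smallest possible). It was 1.45, 1.53 and 1.58 points without G1E replicate 3, G1E-ER4 replicate 3 or G1E replicate 2, and 3.52 points without G1E-ER4 replicate 2, with an exact permutation p of 0.1 to 0.6 over the libraries left out in turn. In asynchronous cells the same measure gave 14.0 points, from 84.6% within and 70.7% between lines (exact permutation p = 0.1). The difference between these stages was not tested. The lists of the stages also differed in the fall of signal with rank. The signal at rank 10000 was 1.81 to 2.56 times that of the last peak in mitotic lists, and 3.10 to 6.01 times in asynchronous lists. Its part in the smaller mitotic values was not tested.

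The advantage of the own line was then taken by peak strength. Among the 10000 strongest peaks, 96.0% ± 5.66 in G1E-ER4 and 98.6% ± 0.204 in G1E were found in lists of the same line, and 94.5% ± 6.88 and 97.0% ± 0.479 in lists of the other line (SD, n = 3 each). The mean advantage was 1.53 points there, 4.63 points at ranks 10001 to 20000 and 0.621 points at ranks 80001 to 90000. Over the 9 rank classes the adjusted p lay between 0.1125 and 0.2 (exact permutation test, Benjamini-Hochberg). In the weakest class, 32.0% ± 8.70 of G1E-ER4 and 34.2% ± 5.84 of G1E peaks were found in lists of the same line, and 33.3% ± 4.35 and 31.5% ± 3.78 in lists of the other line (SD, n = 3 each). From rank 30001 on, in 6 of the 9 classes, G1E-ER4 peaks were found less often in their own line than in G1E, by less than the SD, so the mean advantage in those classes came from the G1E lists.

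**Figure D5:**
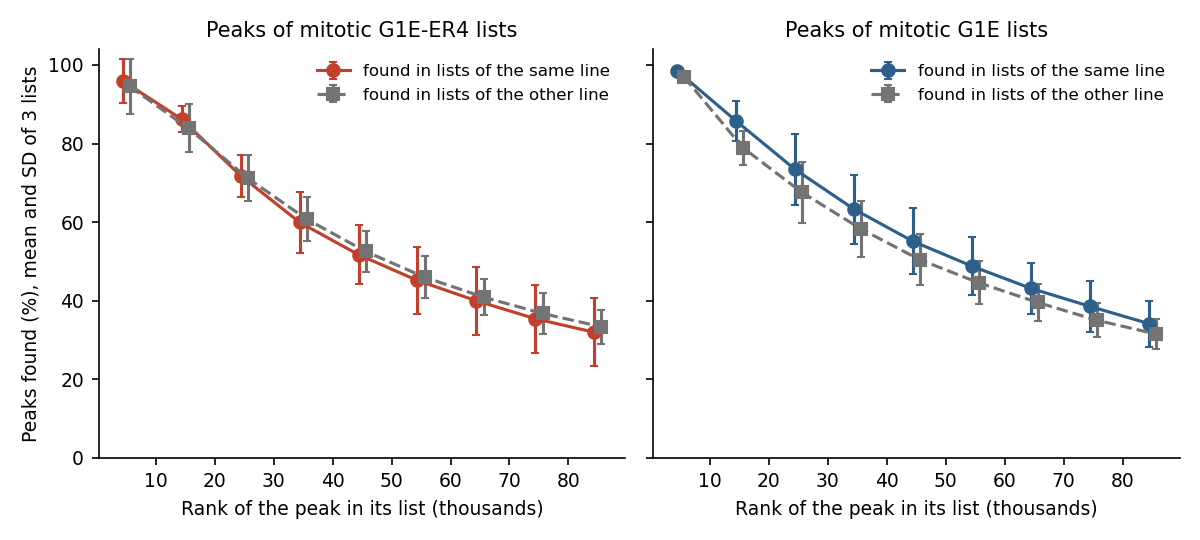
Percent of peaks in each class of 10000 ranks that overlapped a peak of another mitotic list of the same line (circles) or of the other line (squares), for G1E-ER4 (left) and G1E (right); points are means and bars SDs of 3 lists. Recovery drops from over 94% in the strongest class to below 35% in the weakest, and same-line and other-line curves lie within each other's bars in G1E-ER4.

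The position of summits, the points of most cutting within a peak, did not separate the lines. Overlapping peaks had summits a median of 139 bp apart in pairs of lists of the same line (80 to 186 bp over 6 pairs) and 145 bp apart in pairs of different lines (99 to 207 bp over 9 pairs), a difference of 6.11 bp (exact permutation test, two-sided, p = 0.9). In pairs of lists from the same line, 58.8% of peaks overlapped, against 57.0% in pairs of different lines with the same replicate number and 56.7% with different numbers.

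The width of peaks in the 23388 shared regions gave no calls between the lines (0%; limma, 1777 with an unadjusted p under 0.05, and 0 calls with the block, where 2106 had an unadjusted p under 0.05). Without G1E mitotic replicate 1, 8 regions passed, all wider in G1E-ER4. Peak density was compared in 1444 bins of 1 Mb. All 3 G1E-ER4 lists had more peaks than all 3 G1E lists in 118 bins (8.17%), and the reverse held in 34 (2.35%). Each order is 1 of the 20 arrangements of the lists, so these shares alone do not mark a line difference. No bin passed (0%; limma, 116 with an unadjusted p under 0.05, and 0 calls with the block, where 151 had one). Without G1E mitotic replicate 1, 9 bins passed, all denser in G1E-ER4. The bin with the smallest p was at 28 to 29 Mb of chromosome 12, with 27, 32 and 49 peaks in G1E-ER4 replicates 1, 2 and 3 and 10, 15 and 12 in G1E. Its log2 difference was 1.45 ± 0.282 (SE; limma adjusted p = 0.413). In the other direction, the bin with the smallest p was at 59 to 60 Mb of chromosome 4, with 28, 30 and 35 peaks in G1E-ER4 and 111, 43 and 57 in G1E. Its first G1E value is that of the library that stood apart (log2 difference -1.05 ± 0.312, SE; limma adjusted p = 0.57). The bin at 20 to 21 Mb of chromosome 10 held 10, 12 and 15 peaks in G1E-ER4 and 20, 24 and 26 in G1E (log2 difference -0.88 ± 0.262, SE; limma adjusted p = 0.57). At 75 to 76 Mb of chromosome 5 the counts were 33, 38 and 37 in G1E-ER4 and 170, 58 and 58 in G1E, where the first value is that of the library that stood apart (log2 difference -1.19 ± 0.368, SE; limma adjusted p = 0.57).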

How the data were processed

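DNase-seq was done on 12 libraries of G1E and G1E-ER4 cells, in 4 groups of 3. Reads were aligned with Bowtie to mm9, per the submitters' processing notes, which give no version. For the peak caller and its settings, the sources used here give nothing. Each deposited list holds the authors' strongest peaks with position, summit and a signal whose normalization the authors do not state, so signal served only to rank peaks within a list. Other columns, which the authors deposited as constants, were not used.

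Peaks on chromosomes 1 to 19, without chromosome 2 beyond 156 Mb, were ranked anew and the 90000 strongest kept. Regions are unions of peaks sharing at least 1 bp. Ranks, widths and counts per bin (log2 of the count plus 1, bins with a mean of at least 10) were fitted with limma 3.58.1 (trend) in R 4.3.3 with Benjamini-Hochberg adjustment and a threshold of 0.05. Values per list were compared by exact two-sided permutation over 20 arrangements. The number pairs the samples by the correlations given above, all over 0.1, not by a label, so block values are printed beside the others. Not every library correlated best with its own number: G1E-ER4 replicate 2 reached 0.243 with G1E replicate 3. Python 3.11.15 with numpy 2.4.6, pandas 2.3.3, scipy 1.17.1 and matplotlib 3.10.9 did the rest. The rank fit was run on simulated lists in which same-numbered libraries shared part of their variance. Without the block it recovered 27 of 100 differences of 2 units and 85 of 100 of 3 units, with 5 false calls. With the block it recovered 65 and 99, with 15 false calls. The fit without the block thus misses most differences of 2 units in such data.

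Named are the 8 regions per direction with the largest differences among non-overlapping calls, or else with the smallest p, the 6 per line with the best mean rank among regions of that line alone, and the 3 bins per direction with the smallest p. Of these, those that show the range of patterns are described. Comparison, lists and rules were chosen with earlier results of these data known. A planned look-up of erythroid, progenitor and other marker genes needs an mm9 annotation and was not analysed here, and no sequence is printed for the same reason.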

Additional observations from a re-analysis of the deposited data

Results flagged for a closer look

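The part of chromosome 2 beyond 156 Mb, left out of the comparison, carried more peaks in mitotic G1E-ER4. Its lists held 4638, 5515 and 5496 peaks there in replicates 1, 2 and 3, a mean of 5216, against 2115, 2685 and 2402 in mitotic G1E, and every G1E-ER4 list was above every G1E list in 24 of 25 bins of 1 Mb. This was not particular to mitosis. Asynchronous G1E-ER4 lists held 4437, 5627 and 6319 peaks there, and asynchronous G1E lists 1346, 1546 and 1865. These counts are a description, since the part was left out because its peak density differs between the lines.

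A line difference in rank that itself differed between the stages was found at 1 of 15276 regions with the replicate block, chr12:83345283-83351144, where it was -5.43 in asynchronous and -1.12 in mitotic cells (limma adjusted p = 0.0224, and 0.475 without the block).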

How the results depend on the processing

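The count of regions ranked differently, 1 of 23388, was 0 with the 50000 strongest peaks, with 300 bp around each summit and with normal scores of the rank, 190 over regions in at least 3 of 6 lists, and 0 to 119 when a library was left out. With the replicate block, which pairs same-numbered libraries, it was 227. With the block and a further change, chosen after seeing the data, it was 248 with all peaks left, 155 with the 50000 strongest, 368 with distal chromosome 2 kept, 11 with 300 bp around each summit, 239 with overlap of at least 0.5 of the shorter peak, 43 with normal scores, 1482 over regions in at least 3 lists, 234 with chromosome 4 left out and the lists limited to the 75000 strongest peaks, and 398, 463 and 275 without both replicates 1, 2 or 3. The 300 bp windows also leave fewer regions in all 6 lists (12850). The width count of 0 became 33 with distal chromosome 2 kept and ran from 0 to 8 without 1 library, and the bin count from 0 to 9.

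Regions of G1E-ER4 alone, 1075, numbered 652 in the 50000 strongest peaks, 1703 with 300 bp around each summit, 7529 when 2 of 3 lists sufficed, 26576 in the authors' pooled lists, and 1673 to 3949 without 1 library. Those of G1E alone, 1614, numbered 1061 in the 50000 strongest, 9014 when 2 of 3 sufficed, 28698 in the pooled lists, and 2087 to 5299 without 1 library. Fewer lists make the rule easier to meet, and other causes were not tested. The block changed no call of the width and bin fits.

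The asynchronous difference at G1E regions ran from -16.4 to 3.56 points without 1 library, turning sign without G1E-ER4 mitotic replicate 1. The difference in covered length, -11.1 Mb, ran from -32.6 to 5.07 Mb and turned sign without G1E-ER4 mitotic replicate 3, a setting added after seeing the data. The cause was not tested. Recovery, summit distance, median width, asynchronous presence at G1E-ER4 regions and the asynchronous contrast at called regions kept their direction in all settings run. Widths in 300 bp windows are fixed and were not fitted. Depth is unknown, and sites below the limit of a list count as absent.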
